A study of Homo sapiens with 8 samples.

Results

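The comparison described here is that of TPC-1 cells carrying a vector for NR1D1 with TPC-1 cells carrying an empty vector. It rests on 2 of the 8 RNA sequencing libraries of a study that lowered or raised NR1D1 in 4 human thyroid cancer lines, with 1 library a side and no replicate library. TPC-1 is an established line from a papillary thyroid carcinoma that carries a RET fusion. Cells of both groups were transfected, and the labels give the genotype WT to the empty vector and NR1D1 overexpression to the other. The sources used here do not give the promoter of the vector, the part of NR1D1 it carries, the time of harvest, or whether the cells were a pool or a clone. The other vector line, FTC-133 from a follicular thyroid carcinoma, was set up in the same manner and is used below for comparison, while 8505C and CAL-62 received an siRNA against NR1D1 or a control siRNA. The members were chosen by level alone: the TPC-1 table held 19945 protein-coding genes, 15680 of them above 0 in either library, and the 9853 with a mean level of 5 or more over the 2 libraries were counted. A level here is the deposited value, which is already relative to gene length, rescaled so that each library sums to 1000000, and so it can be compared between genes. A log2 ratio is log2 of the level with the NR1D1 vector plus 1 over the level with the empty vector plus 1, which understates the difference for genes of low level.

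The product of NR1D1 is REV-ERB alpha, a heme-binding nuclear receptor that recruits the NCOR and HDAC3 corepressor to DNA. It has no activation helix and acts mainly as a repressor. With its paralogue REV-ERB beta, encoded by NR1D2, it competes with the ROR activators for the same response elements and forms an arm of the circadian clock, in which it represses BMAL1. It is also known to hold back inflammatory genes in macrophages and to act on lipid and matrix genes in several tissues.

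Recovered read totals, meaning deposited value times exon length in units of 1 read, stood, in units of 1e6 reads, at 23.2 and 22.5, empty vector first. Genes above 0 numbered 24390 and 24716 of 58884 identifiers. Mitochondrially encoded transcripts held 17.4% and 19.6% of the rescaled values. The thyroid factor PAX8 was high in both libraries, at 330 and 316, and FOXE1 was present, at 13.2 and 23.1. The other thyroid markers checked, among them TG, TSHR, NKX2-1 and SLC5A5, were below 1 or at 0 in both, so 2 of 7 thyroid markers were present. RET, the receptor gene that is rearranged in this line, was at 35.7 and 39.9. Of the epithelial markers, KRT8 and KRT18 were present and KRT19, CDH1 and EPCAM were below 1. The 13 most specific markers checked for fibroblasts, endothelium and immune cells were all below 1 in both libraries. Their summed levels, empty vector first, were 0.509 and 0.0862 for the 5 fibroblast markers, 0.165 and 0.687 for the 3 endothelial markers, and 0.182 and 0.207 for the 5 immune markers. Longer lists of such markers, which include genes that tumour cells also express, each had 1 member past the level filter. These were PDPN of the 10 fibroblast markers, at 76.4 and 132, MCAM of the 12 endothelial and pericyte markers, at 56.8 and 60.9, and ITGAM of the 11 immune markers, at 7.43 and 4.04, and the summed levels of the lists were 81.8 and 136, 65.1 and 70.3, and 8.24 and 5.30. In bulk RNA, fewer cells of a kind and less RNA per cell cannot be told apart.

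NR1D1 itself (chr17:40092787-40100725, minus strand, GRCh38) was at 190 in the empty vector library and 209 in the other. The ratio was 1.10 (95% interval 1.05 to 1.15, from 3088 and 3398 recovered reads). Such intervals here are exact binomial intervals for counting error only and carry nothing of the spread between cultures. With a log2 ratio of 0.13, NR1D1 stood at rank 3006 of 9853 genes, so the library labelled NR1D1 overexpression differed less in NR1D1 than in many other genes. The empty vector library already held far more NR1D1 than the control siRNA libraries of 8505C and CAL-62, which were at 18.2 and 22.0. These tables were normalized separately, which limits that comparison. In FTC-133 NR1D1 was at 105 and 137. THRA, which overlaps the 3′ end of NR1D1 on the other strand, was at 9.41 and 9.17, a ratio of 0.975 (0.843 to 1.13).

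Of the other receptors of this arm of the clock, NR1D2 was lower with the NR1D1 vector, at 72.0 and 44.5, a ratio of 0.618 (0.580 to 0.659). The activator RORA was almost absent, at 0.0501 and 0.0300, from 5 and 3 reads. Of the 13 genes of the core clock loop, 12 had a mean level of 5 or more, 9 of these had a log2 ratio below 0, and the median was -0.30, against -0.06 over all genes counted. BMAL1, the classical repressed target of the REV-ERBs, was at 8.26 and 6.76, a ratio of 0.818 (0.693 to 0.964) from 326 and 267 reads. Its paralogue BMAL2 (chr12:27332854-27425289) was the only loop member past 2-fold, at 89.7 and 33.1, a log2 ratio of -1.41. All genes together gave 2.11% past 2-fold in that direction, so 1 of 12 is too few to set the list apart. CLOCK, the partner of BMAL1, was level at 21.3 and 21.6, whereas its paralogue NPAS2 was at 10.1 and 12.9. The PER and CRY genes, which encode the negative limb of the loop, were all below 0. PER1 was at 52.9 and 28.6, PER2 at 18.9 and 10.9, PER3 at 15.7 and 12.7, CRY1 at 55.2 and 36.3, and CRY2 at 14.1 and 10.6. The intervals of these 5 ratios lay below 1, and none of the 5 reached 2-fold. Among 5 counted clock output factors, TSC22D3 was past 2-fold, at 5.87 and 12.8, with a log2 ratio of 1.01. NFIL3 and TEF were at log2 ratios of 0.02 and -0.16, BHLHE40 and BHLHE41 at -0.24 and -0.60.

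**Figure D1:**
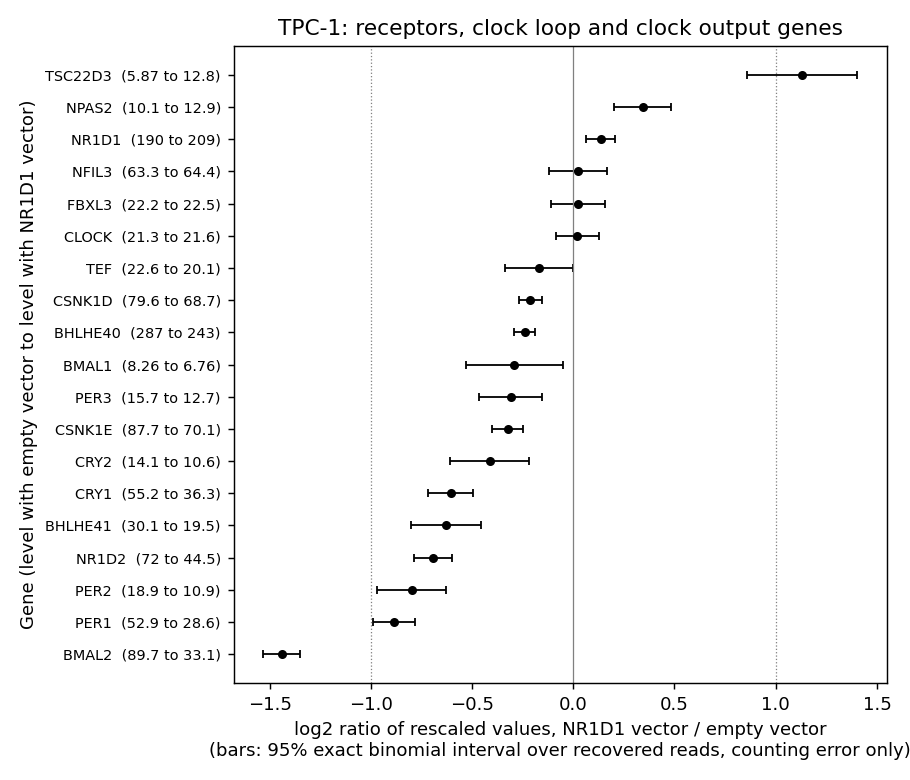
Clock genes of TPC-1: each point is the log2 ratio of the levels in the NR1D1 vector and empty vector libraries, with no added 1, and each bar its 95% exact binomial interval over recovered reads, which covers counting error only. BMAL2 lies left of the dotted 2-fold line and TSC22D3 right of it, and NR1D1 sits just above 0 between 190 and 209.

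Over the 9853 genes, 464 (4.71%) were 2-fold or more apart, 256 of them higher with the NR1D1 vector (2.6%) and 208 lower (2.11%). At 4-fold the counts were 40 higher and 27 lower, and at 8-fold 14 higher and 11 lower. Most genes were alike, with 82.5% within 1.5-fold, and the levels of the 2 libraries correlated across genes at 0.948 (Pearson, log2 of level plus 1, genes not being independent replicates). The share past 2-fold was 7.42% for genes of mean level 5 to 10 and 2.94% for genes of 500 or more. The genes past 2-fold rested on a median of 1321.5 recovered reads over both libraries and on at least 55. None of their intervals included a ratio of 1, which follows largely from choosing genes 2-fold apart in these same libraries. The genes just inside the threshold were TTC3, MRC2 and RGS3 on the higher side and ADAMTS16, WDR36 and TMEM11 on the lower. Just outside were TMTC4, PDK2 and SLC46A3, and MRTO4, QTRT2 and MAP2K3. With 1 library a side there is no replicate spread to hold any of these differences against, so no p-value is given.

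**Figure D2:**
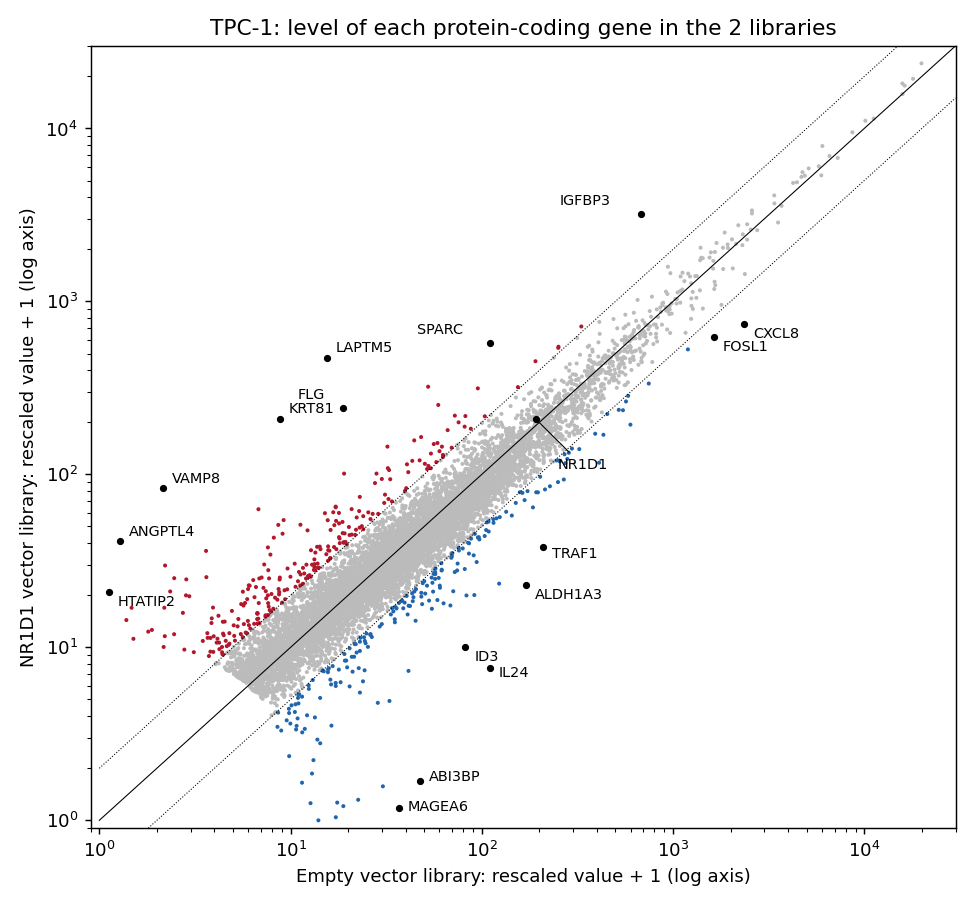
Level of each of 9853 protein-coding genes in the 2 TPC-1 libraries, as level plus 1 on log axes, with the NR1D1 vector on the vertical axis. The solid line marks equal levels and the dotted lines 2-fold, red and blue points are the 256 genes above and the 208 below them, black points are named genes, and NR1D1 lies close to the solid line.

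The genes with the highest ratios were mostly near silent with the empty vector. VAMP8, a SNARE of late endosomes and secretory granules (chr2:85561562-85582031), was at 1.14 in the empty vector library and 82.0 in the other, on 7 and 477 reads. ANGPTL4, a secreted inhibitor of lipoprotein lipase, was at 0.276 and 40.0, on 4 and 583 reads. LAPTM5, a lysosomal membrane protein best known from blood cells (chr1:30732469-30757820), was present in both libraries, at 14.5 and 472, a ratio of 32.6 (28.9 to 36.8). Not all of the highest ratios thus came from genes that were near silent. KRT81, a hair keratin whose sequence is close to that of its neighbours in the keratin cluster, was at 7.78 and 209. HTATIP2, an oxidoreductase gene, was at 0.122 and 20.02, a ratio of 164 with an interval of 45.1 to 1362 that reflects the 2 reads in the empty vector library. FLG, which encodes filaggrin of the epidermis, was at 17.8 and 240. SORT1, the sorting receptor sortilin, was at 2.62 and 35.1. CDH16, the kidney and thyroid cadherin, was at 0.475 and 15.9, and it belongs to the genes that thyroid follicular cells express. The phospholipid transfer protein gene PLTP was at 1.21 and 28.7, the sulfotransferase gene CHST9 at 0.385 and 13.4, and the membrane repair gene DYSF at 0.508 and 10.2. A pair of steroid dehydrogenase genes stood among the 20 highest, HSD17B14 at 1.84 and 19.0 and HSD17B8 at 0.883 and 11.6. TUBB2B, CLIC3, NMRAL1, EFEMP1, ADAMTS5 and LZTS1 were also among the 20, with log2 ratios between 2.81 and 3.35.

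Among genes past 2-fold, those of highest mean level that were higher with the NR1D1 vector were led by IGFBP3 (chr7:45912245-45921874), a secreted carrier of insulin-like growth factors. It was at 676 and 3219, a ratio of 4.76 (4.68 to 4.84) on 18135 and 86425 reads. SRGN, the proteoglycan of secretory granules, was at 331 and 715, TGFBR2, the type II receptor for TGF-beta, at 251 and 546, and NNMT, nicotinamide N-methyltransferase, at 250 and 538. SPARC, a collagen-binding matrix protein, was at 109 and 572, MYOF, a ferlin of the plasma membrane, at 190 and 450, and DDIT4, an inhibitor of mTORC1, at 153 and 319. LAPTM5 completed these 8, and with 278 reads it was the least covered of them with the empty vector. The 8 of highest mean level that were lower were CXCL8 and FOSL1, given below, DRAP1, a transcriptional corepressor, at 1195 and 527, PPP1R15A and SQSTM1, also given below, TRIM28, a corepressor of retroelements, at 567 and 263, PPIF, the mitochondrial cyclophilin, at 598 and 193, and UBE2S, a ubiquitin-conjugating enzyme of mitosis, at 546 and 234.

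On the lower side, several genes were close to silent with the NR1D1 vector. MAGEA6, a cancer-testis antigen gene, was at 35.9 and 0.183, on 392 and 2 reads, 196-fold lower with an interval of 54.0 to 1627. Its near-identical neighbour MAGEA3 was at 12.98 and listed at 0, and against a floor of 3 reads it was at least 45.4-fold lower. Reads of these copies may have been split between them by the counting, so they are best read as a pair. ABI3BP, a matrix protein gene, was at 46.5 and 0.682 on 2997 and 44 reads, and WLS, which carries Wnt proteins to the cell surface, at 29.4 and 0.573. SATB1, a chromatin organizer, was at 16.5 and 0.266, the carbonyl reductase gene CBR1 at 17.9 and 0.208, MRFAP1L1 at 21.6 and 0.315, and LONRF3 at 16.2 and 0.0421, the last on 385 reads and 1 read with a ratio interval of 6.55e-05 to 0.0145. The differences were thus as wide downward as upward. ALDH1A3, which makes retinoic acid, was at 169 and 22.0, and ID3, an inhibitor of bHLH factors and a BMP target, at 81.0 and 9.10. AKAP12, a scaffold of protein kinase A, was at 31.9 and 3.90. Of the prostaglandin pathway, PTGS2, the inducible cyclooxygenase, was at 12.2 and 1.23, and PLA2G4A, the phospholipase that supplies its substrate, at 10.48 and 0.650. STK26, IAH1 and TAOK1 had log2 ratios of -3.34, -2.80 and -2.58. In all, 18 genes were below 1 in a library and at 10 or more in the other, 7 of them higher and 11 lower with the NR1D1 vector. FTC-133 had 37 such genes between its libraries.

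**Figure D3:**
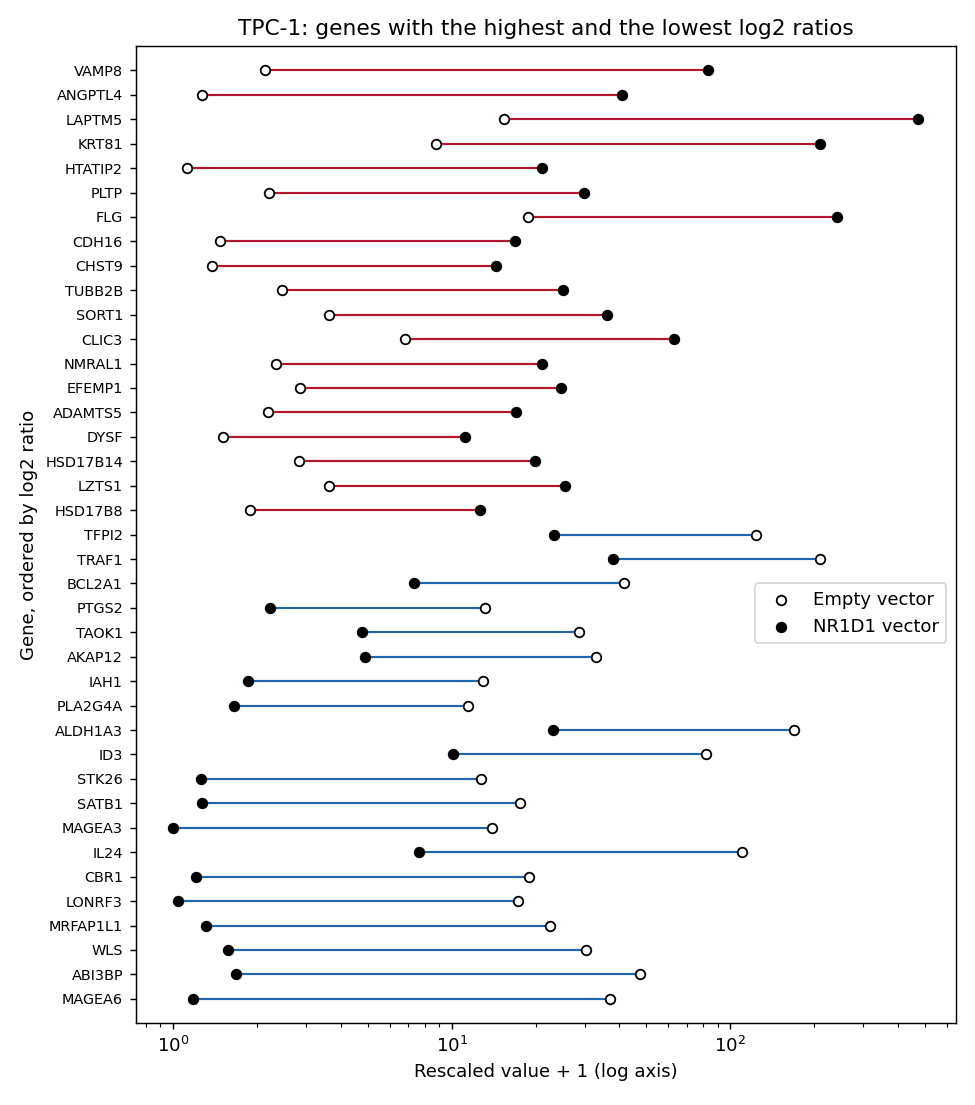
Genes with the highest log2 ratios in TPC-1, 19 of the 20, and the 20 with the lowest, drawn as level plus 1 on a log axis, with open circles for the empty vector and filled circles for the NR1D1 vector. VAMP8 spans 1.14 to 82.0 at the top and MAGEA6 35.9 to 0.183 at the bottom, and many of the bars have an end near a level of 0.

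Chemokine and cytokine genes formed the list with the most members past 2-fold on the lower side. Of 28 genes in the list, 16 were counted, 7 were 2-fold lower and 2 were 2-fold higher, against 2.11% and 2.6% of all genes. The median log2 ratio was -0.83, and the summed level of the listed genes was 4120 in the empty vector library and 1767 in the other. CXCL8 (chr4:73740506-73743716), a chemokine for neutrophils, was the most abundant, at 2350 and 739, a ratio of 0.315 (0.307 to 0.322). IL24 was at 109 and 6.62, IL1B at 15.4 and 2.53, IL1A at 52.0 and 17.6, and IL32 at 62.1 and 17.0. CXCL2 was at 267 and 92.4 and CXCL3 at 40.0 and 14.5. These CXCL genes, with CXCL1 at 778 and 445, are close copies of each other, and the sources used here do not state how shared reads were split. The list did not move as a block. IL6 was at 49.9 and 52.2 and IL11 at 48.2 and 51.8, whereas the monocyte chemokine CCL2 was at 29.02 and 93.1 and CXCL16 at 4.33 and 13.6.

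NF-kB is the transcription factor family that drives many of these genes, and it also induces its own inhibitors and several adaptor proteins. Of the 15 feedback genes listed, 13 were counted, 12 had a log2 ratio below 0 and 4 were 2-fold lower, with a median of -0.74. Over all genes 56.5% were below 0 and 2.11% were 2-fold lower. TRAF1, an adaptor of TNF receptors, was at 208 and 37.1, a ratio of 0.178 (0.168 to 0.189). BIRC3, the ubiquitin ligase cIAP2, was at 93.0 and 30.1. The inhibitors NFKBIE, NFKBIB and NFKBIA were at 73.3 and 26.8, 104 and 46.7, and 316 and 172. The subunits themselves were also lower without reaching 2-fold: NFKB1 was at 167 and 88.3, RELA at 131 and 78.7, NFKB2 at 304 and 191 and RELB at 197 and 128. NFKBIZ was the exception, at 63.8 and 94.6, and SOD2, another well known target, was at 206 and 180. BCL2A1, a survival gene of the BCL2 family that NF-kB induces, was at 40.4 and 6.31.

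Of the 11 cytokine and feedback genes that were 2-fold lower, the 10 with a sequence in the RefSeq promoter table (GRCh38.p14), all but NFKBIE, were searched for GGNNTTTCC, a short form of the NF-kB site, on both strands in the 250 bases before the first listed start. The motif was present in 5 of 10 (50%), in BIRC3, CXCL2, CXCL3, CXCL8 and IL32, against 5.61% of all 19063 promoters and 6.11% of the 8138 of genes counted here. It was in 8.82% of promoters of genes 2-fold lower and 4.57% of those 2-fold higher. The 10 genes and the motif were chosen with the values known, and a match describes letters in this window, not binding. NF-kB is known to drive many members of these lists, so a high share could hold whatever their ratios. Listed genes that were not lower were given no share of their own. CXCL2 and CXCL3 are close copies with the same matches and do not count as independent. IL1A, IL1B, IL24, NFKBIB and TRAF1 had no match. The promoters of 4 of the 5, those of highest level, are printed 5′ to 3′ on the strand of the gene, with matches in capitals. The windows are chr4:73740319-73740568 (plus) for CXCL8, chr4:74099196-74099445 (minus) for CXCL2, chr16:3065153-3065402 (plus) for IL32 and chr11:102317234-102317483 (plus) for BIRC3.
CXCL8: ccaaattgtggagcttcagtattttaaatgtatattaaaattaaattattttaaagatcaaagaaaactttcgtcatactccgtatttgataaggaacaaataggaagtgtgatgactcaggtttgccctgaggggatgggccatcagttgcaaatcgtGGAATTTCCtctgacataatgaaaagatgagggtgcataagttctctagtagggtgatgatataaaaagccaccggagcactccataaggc
CXCL2: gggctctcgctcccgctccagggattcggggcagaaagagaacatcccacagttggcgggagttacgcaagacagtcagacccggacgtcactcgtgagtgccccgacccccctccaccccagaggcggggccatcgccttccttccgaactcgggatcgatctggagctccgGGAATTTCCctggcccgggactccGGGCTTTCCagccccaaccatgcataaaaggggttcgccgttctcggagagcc
IL32: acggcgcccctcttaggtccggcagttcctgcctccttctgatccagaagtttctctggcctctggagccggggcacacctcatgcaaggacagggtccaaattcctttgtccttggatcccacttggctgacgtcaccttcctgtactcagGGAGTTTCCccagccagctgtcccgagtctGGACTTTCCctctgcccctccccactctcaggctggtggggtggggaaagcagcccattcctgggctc
BIRC3: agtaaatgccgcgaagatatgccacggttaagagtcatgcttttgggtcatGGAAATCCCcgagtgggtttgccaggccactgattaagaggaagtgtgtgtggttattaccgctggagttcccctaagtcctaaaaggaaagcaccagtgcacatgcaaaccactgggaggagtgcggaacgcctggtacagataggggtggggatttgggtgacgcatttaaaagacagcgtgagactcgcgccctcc
CXCL2 and IL32 hold 2 matches each, and CXCL8 and BIRC3 hold 1, which in BIRC3 reads on the other strand.

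Other short motifs were searched in the same windows. TGANTCA, the AP-1 site, was in 8.24% of promoters of lower genes, 5.58% of higher genes, 3.51% of genes counted and 5.82% of all promoters. TAGGTCA, a core of the element bound by the REV-ERBs and RORs, was in 1.18% of lower, 1.52% of higher, 1.08% of counted and 1.43% of all promoters. The variant TGGGTCA was in 3.53%, 1.52%, 2.24% and 2.98% of these groups in the same order. CACGTG, the E-box bound by CLOCK and BMAL1, was in 11.2% of lower and 9.64% of higher genes against 9.41% of genes counted. Both strands were searched in each case.

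The AP-1 and immediate early genes, which respond to growth factors and stress within minutes to hours, lay mostly below 0. Of 24 listed, 18 were counted, with 2 lower at 2-fold (2.11% over all genes), none higher and a median of -0.54. FOSL1, the AP-1 subunit FRA1 that MAPK signalling raises, was at 1634 and 623, and KLF6 at 452 and 222. JUN was at 357 and 214, JUNB at 144 and 85.8 and FOSL2 at 258 and 170, all short of 2-fold. EGR1, the textbook immediate early gene, was at 32.8 and 32.9, so the difference did not extend to each member. Of 19 counted MAPK output genes, FOSL1 alone was past 2-fold. MYC was at 424 and 227, PHLDA1 at 580 and 340, DUSP6 at 48.3 and 46.3 and CCND1 at 500 and 489, and the list median was -0.14. Ligands of the EGF receptor family differed in direction. EREG, epiregulin, was at 410 and 116 and HBEGF at 59.3 and 21.7, both past 2-fold, whereas TGFA was at 108 and 190 and AREG at 10.4 and 19.2.

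Genes of blood clotting and plasmin control were lower at 4 of 11 counted members and higher at none, where 2.11% of all genes were 2-fold lower. TFPI2, a protease inhibitor of the matrix, was at 122 and 22.4, THBD, thrombomodulin, at 54.6 and 20.01, the inhibitor SERPINE2 at 9.61 and 3.69, and F3, tissue factor, at 23.9 and 11.03. PLAU, urokinase, was at 1791 and 954, short of 2-fold. The list median of -0.18 was close to that of all genes.

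Matrix genes stood mainly on the other side. Of 21 counted laminins and matrix glycoproteins, 5 were 2-fold higher and 2 lower, with a median of 0.38, beside 2.6% higher and 2.11% lower over all genes. LOXL4, a lysyl oxidase that crosslinks collagen, was at 8.20 and 53.4, and THBS1, thrombospondin, at 58.2 and 251. VCAN, versican, was at 74.6 and 199 and the basement membrane gene NID2 at 8.99 and 24.6, which with SPARC made up the 5. Fibronectin (FN1), the most familiar of the list, was at 661 and 705. On the lower side FBN2, a fibrillin, was at 12.4 and 2.94, and the laminin chain gene LAMB3 was at 2372 and 1436, short of 2-fold. Of 12 counted collagens, 3 were 2-fold higher and none lower, with a median of 0.50. These were COL5A2 at 4.52 and 16.8, COL5A1 at 3.47 and 10.8, and COL8A1 at 14.4 and 33.6. Of 11 counted metalloproteases and their inhibitors, 10 had a log2 ratio above 0 and 2 were past 2-fold, MMP2, a gelatinase, at 31.3 and 108 and ADAMTS12 at 17.7 and 44.8. TIMP2, which takes part in MMP2 activation, was at 84.3 and 153. Of the fibroblast markers, PDPN was also higher, at 76.4 and 132, whereas DCN, LUM and PDGFRA were at 0 and THY1 and FAP below 1 in both libraries. The part of other cells in the matrix values was not tested.

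TGF-beta signalling genes were counted at 16 of 19, with 3 higher at 2-fold, none lower and a median of 0.39. Over all genes 2.6% were 2-fold higher, which is the share to hold this count and that of the keratins against. The ligand gene TGFB2 was at 2.93 and 15.98, INHBA, the subunit of activin A, at 6.65 and 26.9, and the receptor TGFBR2 is given above. TGFB1 was at 128 and 187, the inhibitory SMAD7 at 9.18 and 13.8, and the receptor-regulated SMAD2 and SMAD3 at 13.2 and 13.2 and at 313 and 278. TGFBI, a matrix target of the pathway, went against the list at 8.26 and 4.17. CCN2, a matricellular gene that both TGF-beta and YAP are known to induce, was at 42.3 and 119. WWTR1, which encodes the YAP partner TAZ, was at 103 and 216. The 19 listed YAP and TEAD targets had a median of 0.04, against -0.06 over all genes counted. Of them 2 were 2-fold higher and 1 lower, beside 2.6% and 2.11% of all genes. Of 6 counted keratins 3 were 2-fold higher, KRT81, KRT80 at 26.6 and 88.1, and KRT8 at 57.7 and 151. KRT18, the partner of KRT8, was at 125 and 199, and KRT7 was at 8.91 and 4.90. JUP, plakoglobin of cell junctions, was at 16.2 and 64.1 and the cadherin CDH6 at 4.63 and 19.99.

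**Figure D4:**
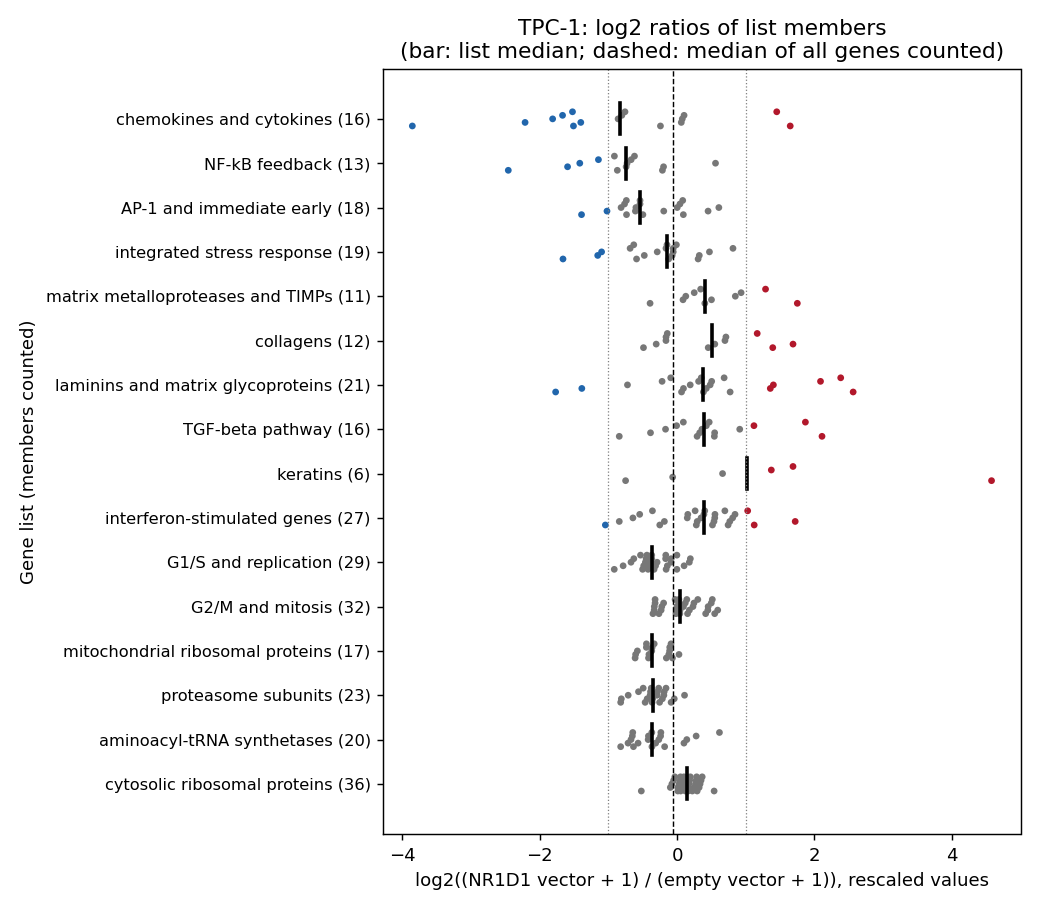
Log2 ratios of the counted members of 16 gene lists in TPC-1, each dot a gene, with a bar at the list median and a dashed line at the median of all genes. Chemokines and cytokines (median -0.83) and NF-kB feedback genes (-0.74) lie to the left, keratins (1.02), collagens (0.50) and TGF-beta genes (0.39) to the right, and the 29 replication genes form a narrow group below 0 with none past the dotted 2-fold lines.

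Interferon-stimulated genes were 2-fold higher at 3 of 27 counted members and lower at 1, with a median of 0.39 and 20 above 0. The shares over all genes were 2.6% higher and 2.11% lower. IFITM2, an antiviral membrane protein, was at 94.4 and 313, though its reads may be shared with the close copy IFITM3, which was at 487 and 790. GBP2 was at 5.69 and 13.6 and DDX60 at 6.90 and 15.1. OASL and ISG15 lay the other way, at 11.4 and 5.03 and at 35.2 and 19.2, so the list was mixed. The integrated stress response, in which ATF4 drives amino acid and stress genes, had 3 of 19 counted members lower at 2-fold and none higher. STC2 was at 44.1 and 13.3, PPP1R15A, the phosphatase subunit GADD34, at 746 and 334, and DDIT3, the factor CHOP, at 118 and 54.7, whereas SLC7A11 and TRIB3 were at 6.31 and 5.72 and at 67.6 and 64.3. Genes of the DNA damage response were divided. GDF15, a stress cytokine, was at 18.1 and 100.1, GADD45A at 432 and 168 and the nuclease gene AEN at 196 and 77.7, while CDKN1A and MDM2, well known genes of this response, were at 443 and 486 and at 56.6 and 54.9.

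Several large lists of growth and housekeeping genes showed small, even differences, with no member past 2-fold. All 29 genes for the G1/S transition and replication were counted, 26 of them below 0, with a median of -0.37. CDC6, a licensing factor, was at 44.6 and 23.2, CDC25A at 28.7 and 16.2, the helicase subunit MCM2 at 86.4 and 53.9, and PCNA at 327 and 296. The 32 genes of G2/M and mitosis had a median of 0.04, with 19 above 0. Over all genes 56.5% were below 0, which is the level to hold such counts against. Proteasome subunits had 22 of 23 below 0 and a median of -0.36, mitochondrial ribosomal proteins 16 of 17 and -0.36, and aminoacyl-tRNA synthetases 16 of 20 and -0.37. Cytosolic ribosomal proteins were on the opposite side, with 31 of 36 above 0 and a median of 0.15, led by RPL22 at 85.6 and 125. Respiratory chain subunits encoded in the nucleus had a median of -0.16 and the 13 mRNAs of the mitochondrial genome a median of 0.13. Heme is the ligand of REV-ERB alpha. The 9 genes of heme synthesis and breakdown listed had a median of 0.32, with ALAD at 15.9 and 27.3 and UROS at 14.9 and 25.2, whereas HMOX1, which degrades heme, was at 304 and 169. The corepressor genes for NCOR and HDAC3 had a median of 0.08 over 5. Of the metabolic lists, cholesterol synthesis and uptake had a median of 0.14 over 22 genes, fatty acid synthesis 0.06 over 21 and glycolysis -0.11 over 21, with a single gene of these past 2-fold, DGAT2 at 13.9 and 6.27.

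Of the remaining signalling lists, Wnt pathway genes were counted at 14 of 23, with 1 higher at 2-fold, 2 lower and a median of 0.38, beside 2.6% higher and 2.11% lower over all genes. The receptor FZD1 was at 7.30 and 18.4, LGR5, a receptor for R-spondins, at 10.9 and 2.38, and the transcription factor TCF7 at 15.6 and 6.80. Of 11 counted BMP pathway and ID genes ID3 alone was past 2-fold. Its relative ID2 lay the other way, at 26.4 and 42.6, and the BMP antagonist NOG was at 22.4 and 32.5. In the insulin-like growth factor system IGFBP3 was likewise the single member of 8 past 2-fold, and the carriers IGFBP4 and IGFBP6 were at 237 and 472 and at 98.7 and 64.2. The matrix receptor CD44 was at 939 and 1586 and the adhesion molecule ALCAM at 141 and 247, both short of 2-fold. Among stress lists, heat shock proteins had 14 of 18 below 0 and a median of -0.29. Their activator HSF1 was the member past 2-fold, at 249.4 and 89.3, and the chaperones HSPA9 and STIP1 were at 264 and 165 and at 366 and 218. The autophagy list had 2 higher and 1 lower of 19, GABARAPL1 at 12.3 and 28.2, the lysosomal protease gene CTSD at 68.6 and 142, and the cargo receptor gene SQSTM1 at 581 and 284. Histone genes of replication had 10 of 12 below 0 and a median of -0.45. The lists of thyroid identity and driver genes held no member past 2-fold among 6 and 13 counted. CDH16, given above as a gene of thyroid follicular cells and past 2-fold, is in neither list. GLIS3 was at 15.2 and 27.9, HHEX at 22.2 and 15.7, HRAS at 53.7 and 29.7, and BRAF at 12.1 and 9.21.

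Some of the named differences sat close enough to 2-fold for another setting to bring them under it. The 2-fold call moved for 15 named genes with a pseudocount of 5 and for 10 on the values as deposited. It moved for 5 with centring on the median and for 2 on rescaling without mitochondrially encoded genes. With centring on the median, F3, OASL, DGAT2, SQSTM1 and KLF6 were at log2 ratios of -0.99, -0.98, -0.98, -0.97 and -0.96. With a pseudocount of 5, which weighs on low genes, TSC22D3 was at 0.71, GBP2 at 0.80, DDX60 at 0.76, COL5A1 at 0.89, COL8A1 at 0.99, SERPINE2 at -0.75, TCF7 at -0.80 and FZD1 at 0.93, with MYL9, HERPUD1, CTSD and GABARAPL1 between 0.94 and 0.99. F3, OASL and DGAT2 were also under 2-fold with that pseudocount. No named gene past 2-fold changed its sign under the pseudocount and scaling alternatives. A pseudocount cannot change a sign, and the scaling alternatives shifted the ratios by little beside 2-fold, so this outcome was fixed beforehand.

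FTC-133 was the other line given an NR1D1 vector. There 9509 genes were counted and 680 (7.15%) were 2-fold or more apart, 410 higher (4.31%) and 270 lower (2.84%). Of 8698 genes counted in both lines, 185 were 2-fold higher in TPC-1 and 258 in FTC-133, and 30 were higher in both, which is 16.2% of the TPC-1 genes and 11.6% of the FTC-133 genes, where 2.97% of all 8698 were higher in FTC-133. For the lower genes the overlap was 9, or 5.63% of 160 in TPC-1 and 4.92% of 183 in FTC-133, beside 2.10% of all 8698. Of the same 160 genes, 12 (7.5%) were 2-fold higher in FTC-133, beside 2.97% of all 8698. Above 0 in FTC-133 were 113 of them (70.6%), against 54.2% of all 8698. Of the 185 genes higher in TPC-1, 10 (5.41%) were 2-fold lower in FTC-133, beside 2.10% of all 8698. In opposite directions were thus 22 genes. On the values as deposited, where fewer genes reach the level of 5, 11 were higher in both, 5 lower in both and 6 opposite. With a pseudocount of 5 the opposite count was 10. The log2 ratios of the lines correlated across genes at -0.07 (Pearson, over 8698 genes that share the libraries).

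The genes past 2-fold in both lines are named here after their values were seen. IGFBP3 was higher in both, with log2 ratios of 2.25 in TPC-1 and 2.35 in FTC-133, as were SORT1 (3.32 and 2.15), TUBB2B (3.35 and 2.46), LZTS1 (2.81 and 3.16), THBS1 (2.09 and 1.72), KRT8 (1.37 and 2.59), KRT80 (1.69 and 1.37), COL5A1 (1.39 and 1.29), DDIT4 (1.05 and 1.32) and GBP2 (1.12 and 1.16). CXCL8 (-1.67 and -2.09), EREG (-1.81 and -2.81), TFPI2 (-2.40 and -1.40), STC2 (-1.66 and -1.19) and THBD (-1.41 and -1.14) were lower in both, with CLGN, KCTD12, PDZK1IP1 and FGF5. The 11 NF-kB feedback genes counted in both lines had a median of -0.73 in TPC-1 and 0.52 in FTC-133, and the 12 cytokine genes -1.13 and 0.23, so these lists lay on opposite sides. TRAF1, which was under the level filter in FTC-133, was at log2 ratios of -2.46 and 1.07, and FOSL1 was at -1.39 and 0.73. Other lists, over members counted in both lines, lay above 0 in each, the collagens at medians of 0.45 and 1.14, keratins at 1.02 and 1.79, laminins and matrix glycoproteins at 0.37 and 0.45, and interferon-stimulated genes at 0.34 and 0.58. None of these differences between lines can be tested with 1 library a side. BMAL1 was at -0.26 and -0.46 and NR1D2 at -0.68 and -0.20, while PER1 was at -0.86 and 0.24.

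**Figure D5:**
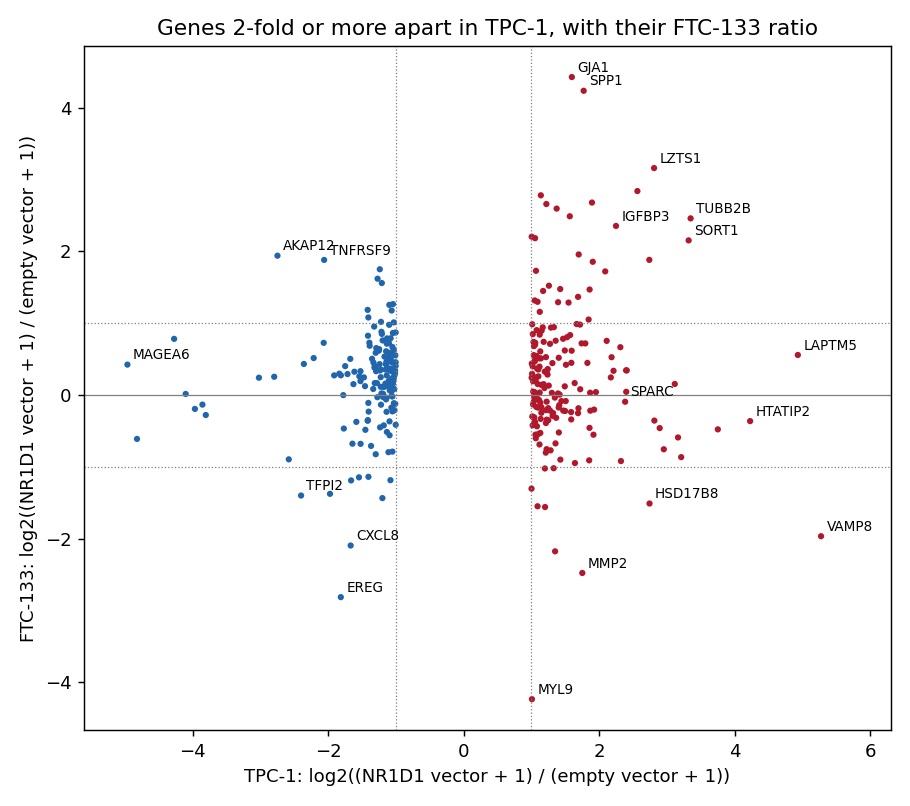
The genes 2-fold or more apart in TPC-1 that were counted in both vector lines, with the TPC-1 log2 ratio on the horizontal and the FTC-133 log2 ratio on the vertical axis, and dotted lines at 2-fold. The upper right corner holds 30 genes, among them IGFBP3 and LZTS1, the lower left 9, among them CXCL8 and EREG, and 22 lie in the opposite corners, among them MYL9 and AKAP12.

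The siRNA lines gave the opposite manipulation. Of 123 genes 2-fold higher in TPC-1 and counted in both 8505C and CAL-62, 4 were 2-fold lower after the siRNA in both lines and 7 were 2-fold higher in both. Of 104 genes lower in TPC-1, 2 were higher in both siRNA lines and 6 were lower in both. As shares, 5.69% of the genes higher in TPC-1 and 1.92% of those lower in TPC-1 were higher in both siRNA lines, against 0.965% of all 7874 genes counted in the 3 lines. Lower in both siRNA lines were 3.25% and 5.77%, against 1.83% of all 7874. Across genes, the TPC-1 log2 ratios correlated at 0.08 with those of 8505C (Pearson, 8953 genes) and at 0.24 with those of CAL-62 (8077 genes). With FTC-133, the other vector line, the same correlation was -0.07. Genes are not independent replicates, and these differences between lines were not tested. NR1D1 was at 11.2 in 8505C and 10.1 in CAL-62 after the siRNA, and the median log2 ratio over all genes counted both there and in TPC-1 was 0.01 and -0.42.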

How the data were processed

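Expression was measured by RNA sequencing of Trizol-extracted RNA (RNA integrity number at least 6.8) after standard Illumina preparation, per the labels' protocols. Per the submitters' processing notes, the build was GRCh38 and the tools were Trimmomatic 0.38, featureCounts 2.0.0, FastQC and MultiQC. For the aligner, annotation release and strand setting, the sources used here give nothing.

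All deposited tables carry the name TPM. The 8505C and CAL-62 columns sum to 1000000 and were read as TPM made by the authors. The TPC-1 columns sum to 253330 and 261161, and deposited value times exon length (GENCODE 29) sums to 1.001 and 1.002 times what FPKM gives, so the deposited TPC-1 and FTC-133 values were taken to be FPKM, then rescaled so that each library summed to 1000000. Symbols came from the name table, or from GENCODE 29 where it had none. Reads were recovered as value times exon length over the value of 1 read, taken as the median of the 800 smallest products. Of low values, 93.6% were whole within 0.02 in both TPC-1 libraries, and of all values above 0, 73.6% and 73.7%, empty vector first. These shares are too low for a count model, and the read numbers and intervals given rest on rounded values.

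Genes with a mean of 5 or more were compared as log2 of the level plus 1, with a fold of 2 as the call. There is no replicate, hence no test. Exact binomial (Clopper-Pearson) 95% intervals cover counting error only. Where a library had 0 reads, a floor of 3 counts in that library was used. Named genes were the 20 highest and 20 lowest log2 ratios, the 8 of highest level per direction past 2-fold, all receptor and clock genes, and the 4 largest ratios of each list with a member past 2-fold or a median 0.2 or more from that of all genes. Other members are given as context and were chosen with their values known. The 61 gene lists, and the rules, were chosen with earlier results of these data known. Of the listed genes, 309 entries fell below the level filter or were absent. Results for a few genes are not reported here. Alternatives changed the pseudocount, the scaling and the filter. Python 3.11.15, numpy 2.4.6, pandas 2.3.3, scipy 1.17.1 and matplotlib 3.10.9 were used, and the calculation was tested on simulated data.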

Additional observations from a re-analysis of the deposited data

Results flagged for a closer look

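For 7 named genes the 2 vector lines lay past 2-fold in opposite directions, each with 1 library a side, and the difference between the lines was not tested. The log2 ratios in TPC-1 and FTC-133 were 5.27 and -1.96 for VAMP8, 2.74 and -1.51 for HSD17B8, 1.75 and -2.48 for the gelatinase gene MMP2, and 1.01 and -4.23 for the myosin light chain gene MYL9. Lower in TPC-1 and higher in FTC-133 were AKAP12 at -2.75 and 1.94, the NF-kB inhibitor NFKBIE at -1.42 and 1.18, and the EGF receptor ligand HBEGF at -1.41 and 1.08.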

How the results depend on the processing

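No paired analysis was possible because each group has 1 library and the labels give no replicate numbers, and for the same reason no library could be left out. The 464 genes past 2-fold (256 higher, 208 lower) became 278 (149 and 129) with a pseudocount of 5, and 205 (121 and 84) of 6617 genes on the values as deposited, where fewer genes reach the level of 5. With a mean of 1 or more they were 718 (401 and 317) of 11697 genes, with a mean of 20 or more 250 (124 and 126) of 6523, and with no filter beyond a value above 0 they were 780 (435 and 345) of 15680, counts that follow the number and level of the genes tested. A pseudocount of 0.1, centring on the median or on a trimmed mean, and rescaling without mitochondrially encoded genes gave 536, 477, 475 and 516, with 464, 431, 429 and 449 of the 464 genes still past 2-fold. Higher genes made up 55.2% of those past 2-fold as reported and between 53.6% and 63.6% under the pseudocount and scaling alternatives. The NR1D1 log2 ratio was between 0.13 and 0.20 under the 6 pseudocount and scaling alternatives. With 1 library a side no difference could be set against the spread between cultures, and at low levels the count depends on the pseudocount.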

Other observations

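Noncoding genes with a symbol and at least 300 exon bases were not part of the counts above. Of 299 with a mean level of 5 or more, 31 were 2-fold higher with the NR1D1 vector in TPC-1 and 18 lower, together 16.4%. LINC01605 was at 1.003 and 27.4 with the empty and the NR1D1 vector, and at 5.43 and 32.4 in FTC-133. LINC02274 was at 1.16 and 17.3 and LINC01234 at 1.14 and 11.4, whereas LINC02827 was at 20.2 and 1.19. SNHG1, a host of small nucleolar RNAs, was at 86.0 and 41.6, and MIR22HG, the host of a microRNA, at 61.6 and 27.7. Antisense genes were among them, and without a stated strand setting their reads cannot be told from those of the partner gene.

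By chromosome, genes past 2-fold made up 8.48% of 401 counted genes on chromosome 10, where 27 were higher and 7 lower, 7.61% of 92 on chromosome 21, where 5 were higher and 2 lower, and 7.31% of 616 on chromosome 19, where 16 were higher and 29 lower, beside 4.71% of all genes. The lowest shares among the nuclear chromosomes were 1.70% of 235 on chromosome 22 and 1.92% of 313 on the X chromosome.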
